A study of Mus musculus with 6 samples.

Results

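NMDA receptor subunits were followed in cells sorted as corticothalamic projection neurons, which send axons from the cortex to the thalamus. The stages ran from the end of gestation through early postnatal life. Members were the probe sets that the platform annotation gives to exactly 1 gene symbol among Grin1, Grin2a, Grin2b, Grin2c, Grin2d and Grin3a. Of these 6 genes, 5 were represented, by 11 of the 34945 probe sets with 1 symbol: 1 for Grin2a, 4 for Grin2b, 1 for Grin2c, 2 for Grin2d and 3 for Grin3a. No probe set carried Grin1 as its only symbol, so Grin1 was not analysed here. The samples were 6 Affymetrix arrays of RNA from C57BL/6 mice, 2 at each of 3 stages, and the labels name no transgene and no treatment other than the tracer. Green fluorescent microspheres were injected into the thalamus at E17.5, P1 or P4, taken up by the axons, and carried back to the cell bodies, and the labelled neurons were sorted by fluorescence from dissociated cortex at E18.5, P3 or P6. The first stage is called E18, as in the sample names. The tracer was in place for 1 day in the E18 group and for 2 days in both postnatal groups, and the effect of that difference cannot be told apart from the effect of age. Whether both arrays of a group trace back to different mice is left unsaid in the labels. The p-values therefore reflect only array-to-array spread, part of which may be technical.

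NMDA receptors are glutamate-gated cation channels that pass calcium and that open when glutamate and a co-agonist are bound while depolarisation lifts a block by magnesium. Each receptor joins obligatory GluN1 subunits, encoded by Grin1, with GluN2 subunits (Grin2a to Grin2d), which bind glutamate and set the kinetics, or with GluN3 subunits (Grin3a and Grin3b), which bind glycine and lower calcium entry and magnesium block. In rodent forebrain GluN2B and GluN2D are known from before birth, GluN2A rises over the postnatal weeks, GluN2C is mainly a cerebellar and glial subunit, and GluN3A is most abundant in early postnatal life.

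After E18, 2 of the 3 Grin3a probe sets and 2 of the 4 Grin2b probe sets were called higher. Grin2a stayed among the dim signals of every array, and Grin2d was higher after birth by up to 0.65 log2 units without passing the test. Grin2c was lower at P3 and higher at P6 than at E18, in calls that several alternative settings removed. By P6 the 2 brighter Grin3a probe sets were 12.8-fold and 14.1-fold higher than at E18, and the brightest Grin2b probe set was 4.68-fold higher. Those Grin3a folds are against E18 values near the range of dim signals. Limma's moderated test, with p-values adjusted over all 34945 probe sets, called 6 of the 11 members between E18 and P3, against 28.6% of all probe sets. Of these, 5 were higher and 1 lower at P3, where 11.5% of all probe sets were called higher and 17.1% lower. At P6 it called 5 members (21.1% of all probe sets), all of them higher than at E18, against 8.76% of all probe sets called higher and 12.4% lower. These comparisons share the E18 arrays. Both P3 arrays lay above both E18 arrays for 10 members and below for 1 (Grin2c), as they did for 44.2% and 33.7% of all probe sets. Both P6 arrays lay above both E18 arrays for all 11, against 44.5% of all probe sets above and 31.2% below. Both P6 arrays lay above both P3 arrays for 5 members and below for 1, against 21.9% and 18.4%. The median change of the 11 members was 0.86 log2 units at P3 and 0.92 at P6, and that of all probe sets was 0.11 at both stages. For 18 genes of other organs, taken as a reference for dim signal, it was 0.32 and 0.29. Most of those genes also had both P3 arrays above both E18 arrays, so such a separation is not particular to the members. Between P3 and P6 limma called 0 of the 11 members and 0% of all probe sets. An unadjusted p under 0.05 was reached by 4 members, not all in 1 direction, and by 5392 of the 34945 probe sets.

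**Figure D1:**
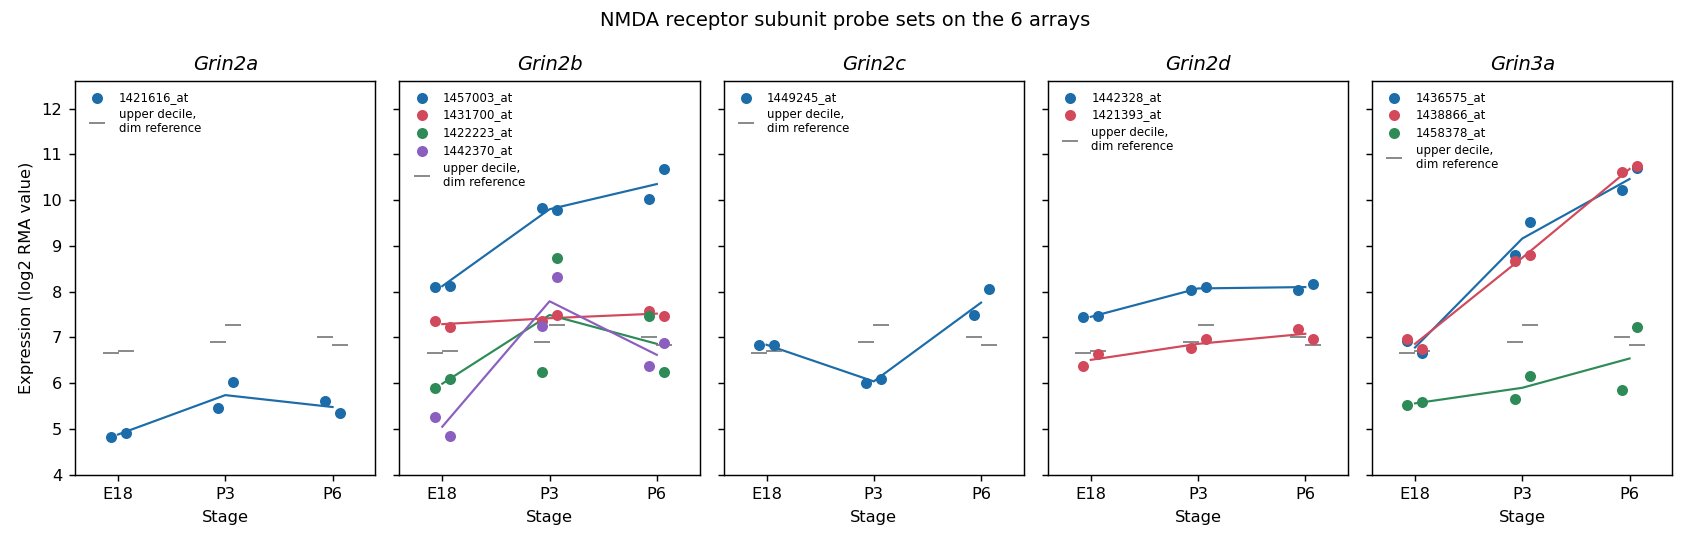
Log2 RMA values of the 11 probe sets of 5 NMDA receptor subunit genes on the 6 arrays, by stage. Each point is 1 array, lines join stage means (n = 2), colours are probe sets, and grey dashes mark on each array the upper decile of 18 genes of other organs. The 2 brighter Grin3a probe sets rise from 6.65 to 6.96 at E18 to between 10.22 and 10.74 at P6, while Grin2a lies under the dashes on every array.

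The sorted material changed over the same stages. The 8 markers of corticothalamic and layer 6 neurons (Tbr1, Tle4, Foxp2, Zfpm2, Sox5, Ntsr1, Syt6 and Crym) averaged 8.23 and 8.30 log2 units at E18 and 9.91 to 10.67 later, and all 8 rose at both postnatal stages. The 8 general neuron markers averaged 9.63 and 9.70 at E18 and 11.47 to 11.66 later, with median changes of 1.74 at P3 and 2.01 at P6. Markers of progenitors and dividing cells averaged 11.56 and 11.58 at E18 and 6.21 to 6.48 later, with 10 of 11 lower at both postnatal stages. On both E18 arrays the progenitor mean stood above the means of the corticothalamic and general neuron lists. The E18 samples are therefore named by how they were sorted, and changes from E18 need not lie within 1 cell type. Astrocyte markers averaged 10.10 and 10.15 at E18, with P3 at 7.04 and 7.11 and P6 at 7.52 and 8.40, and microglia markers 9.27 on both E18 arrays, 6.60 and 7.44 on the P3 arrays, and 7.09 and 8.94 on the P6 arrays. Oligodendrocyte lineage markers averaged 7.08 and 7.06 at E18 and 6.19 to 6.83 later, with 2 of 7 lower at P3 and 1 at P6. Vascular markers averaged 6.78 and 6.73 at E18 and 5.93 to 6.06 later, with 3 of 8 lower at both postnatal stages. In such pooled RNA, fewer cells of a type and less RNA per cell cannot be told apart, and the part of these shifts in the subunit changes was not tested. The E18 arrays differed little from each other (SD of log2 differences 0.127), against 0.573 for P3 and 0.457 for P6. Added hybridization control transcripts averaged 9.25 to 9.59 at E18 and 11.59 to 11.72 at P3, while the P6 arrays gave 13.01 and 9.85. As a sign of RNA quality, 3' probe sets exceeded 5' probe sets by 0.557 and 0.584 log2 units for Actb at E18 and by 0.818 to 1.76 later, and by 1.44 to 1.48 for Gapdh at E18 and by 1.68 to 2.55 later. The part of this shift in the subunit changes was not tested. Signal for 18S ribosomal RNA was high on P3 replicate 2 (14.22) and P6 replicate 1 (13.92), while the other arrays gave 11.32 to 11.83. As a reference for dim signal, 18 genes of other organs, such as those for albumin, milk casein and sperm protamines, had upper deciles between 6.66 and 7.27 on the 6 arrays, and their median changes from E18 were 0.32 at P3 and 0.29 at P6.

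**Figure D2:**
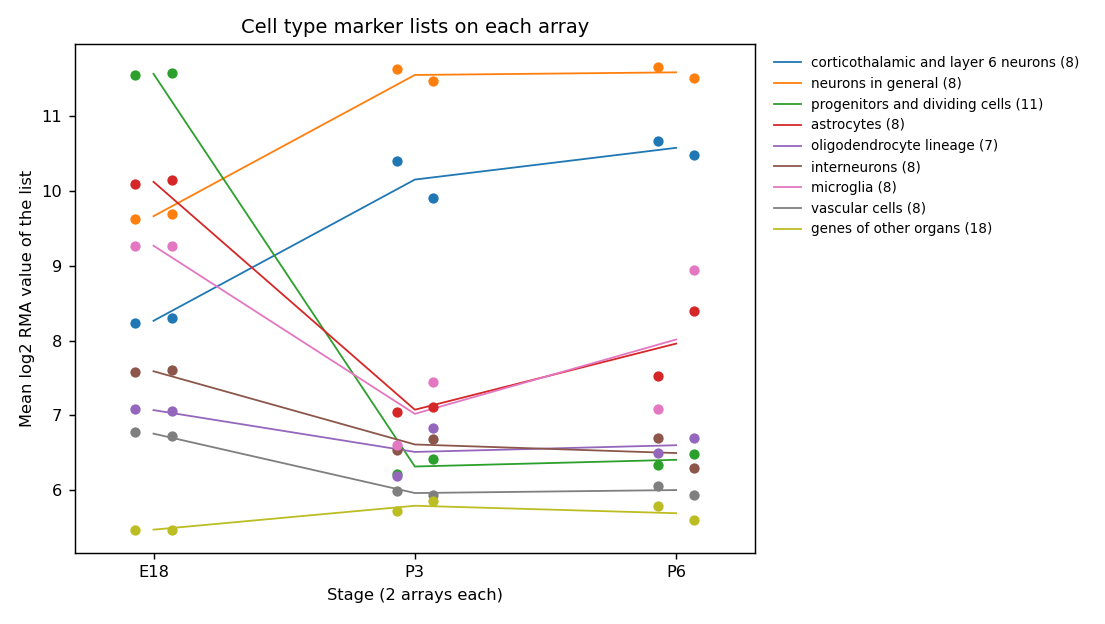
Mean log2 RMA value of each cell type marker list on each array. Points are arrays, lines join stage means, and the number of genes in a list is in brackets. Neuron and corticothalamic lists stand higher after E18, and the progenitor list falls from 11.56 and 11.58 at E18 to between 6.21 and 6.48.

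Grin2a encodes GluN2A, the subunit that speeds the receptor's decay as cortical synapses mature. Its single probe set read 4.83 and 4.92 log2 units at E18, with P3 at 5.45 and 6.02 and P6 at 5.62 and 5.34. All postnatal arrays lay above the E18 arrays, and the P3 and P6 arrays overlapped. The 2 highest values came from P3 replicate 2 and P6 replicate 1, the arrays with the high 18S signal. The part of that signal in them was not tested. None of the 6 values exceeded the upper decile of the genes of other organs, and only 1, that of P3 replicate 2, exceeded their median on its array. On that array it ranked at percentile 33.5 of all probe sets, and on the others between 15.1 and 27.0. The change to P3 was 0.86 ± 0.22 log2 units (SE; 1.81-fold; limma adjusted p = 0.0292), beside a median of 0.32 for the genes of other organs. That call ended under 7 of 11 alternative settings, with adjusted p from 0.0512 to 0.236, among them leaving out either E18 array, either P6 array or P3 replicate 2, where the change was 0.58. The change to P6 was 0.60 ± 0.22 (adjusted p = 0.101), called at the same size without P3 replicate 1 or 2 (0.032 to 0.0329).

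Grin2b encodes GluN2B, the slow GluN2 subunit of immature forebrain synapses and a docking site for the calcium-activated kinase CaMKII. Its brightest probe set, 1457003_at, read 8.11 and 8.13 at E18, then 9.82 and 9.78 at P3, followed by 10.02 and 10.68 at P6. The 3 stages did not overlap and stood in the order E18, P3, P6, and every value was above the upper decile of the genes of other organs. The rise to P3 was 1.68 ± 0.28 (3.20-fold; limma adjusted p = 0.00635) and the rise to P6 was 2.23 ± 0.28 (4.68-fold; adjusted p = 0.00193). The step from P3 to P6, 0.55 ± 0.28, did not pass the test (adjusted p = 0.389). With the E18 arrays averaged, or without E18 replicate 1 or 2, the call at P3 was lost, with adjusted p from 0.0668 to 0.0686, while the call at P6 held under all 13 alternatives.

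The other Grin2b probe sets did not follow that one in full. Probe set 1442370_at read 5.26 and 4.84 at E18, with P3 at 7.26 and 8.32 and P6 at 6.38 and 6.87. It was highest at P3, with no overlap between any of the stages. Both E18 values lay below the median of the genes of other organs (5.66 and 5.63), and P6 replicate 1 below their upper decile (7.02), so its folds are against a dim signal. It rose by 2.73 ± 0.38 to P3 (6.65-fold; limma adjusted p = 0.00299) and stood 1.57 ± 0.38 above E18 at P6 (2.97-fold; adjusted p = 0.0267). Its 2 intervals differed by -3.90 ± 0.65 (second minus first; adjusted p = 0.0149), in a test that called 8.87% of all probe sets higher and 3.26% lower. The P6 call ended under 7 of 12 alternatives (adjusted p from 0.0643 to 0.158), 4 of which left out an E18 or a P6 array. The interval call ended under 3 of 12 (from 0.0526 to 0.0681), among them without P6 replicate 1 or 2. Without P3 replicate 1, P6 was called lower than P3 (-1.69, adjusted p = 0.028).

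Probe set 1431700_at stayed between 7.23 and 7.58 on all 6 arrays, with a change to P6 of 0.23 ± 0.20 (adjusted p = 0.448). Probe set 1422223_at read 5.89 and 6.09 at E18, then 6.25 and 8.73 at P3, followed by 7.47 and 6.24 at P6. Its 2 high values came from P3 replicate 2 and P6 replicate 1, the arrays with the high 18S signal, and the part of that signal in them was not tested. Its change to P3 of 1.51 ± 0.77 did not pass the test (adjusted p = 0.172) and lay at 0.27 without P3 replicate 2 and at 2.74 without P3 replicate 1, where it was called (adjusted p = 0.0138). Thus 2 of the 4 Grin2b probe sets were called higher at P3 and at P6, and the shape after P3 differed between those 2.

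Grin2c encodes GluN2C, a subunit with weak magnesium block. Its probe set read 6.84 on both E18 arrays, 6.00 and 6.09 on the P3 arrays, and 7.48 and 8.05 on the P6 arrays. The stages did not overlap, with the order P3, E18, P6, and the P3 values were below the upper decile of the genes of other organs. The change was -0.80 ± 0.24 to P3 (1.74-fold lower; limma adjusted p = 0.0457) and 0.92 ± 0.24 from E18 to P6 (1.90-fold higher; adjusted p = 0.0337). The second interval exceeded the first by 2.52 ± 0.41 (adjusted p = 0.0137), a call lost when the E18 arrays were averaged and when either of them or P3 replicate 2 was left out (0.0502 to 0.0677). P6 differed from P3 by 1.72 ± 0.24 (unadjusted p = 0.000191), which did not pass over all probe sets (adjusted p = 0.185) except without P3 replicate 1 (1.68, adjusted p = 0.0252). The fall to P3 was lost under 7 of 13 alternatives (adjusted p from 0.0622 to 0.291), among them the replicate block at 0.0622 and the fits without 1 of the E18 or P3 arrays. The rise to P6 was lost under 4 (0.0714 to 0.227), among them without either E18 array and without P6 replicate 2, where the change was 0.64. Astrocyte markers averaged 10.10 and 10.15 at E18, 7.04 and 7.11 on the P3 arrays, and 7.52 and 8.40 on the P6 arrays. The part of astrocytes in the Grin2c values was not tested.

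Grin2d encodes GluN2D, the slowest GluN2 subunit, known from embryonic brain and from interneurons. Its brighter probe set, 1442328_at, read 7.44 and 7.46 at E18, with P3 at 8.04 and 8.11 and P6 at 8.04 and 8.17. The other, 1421393_at, read 6.38 and 6.63 at E18, then 6.77 and 6.96 at P3, followed by 7.19 and 6.97 at P6. Postnatal arrays lay above the E18 arrays for both probe sets, as for most other members. The brighter changed by 0.62 ± 0.20 to P3 (limma adjusted p = 0.0604) and by 0.65 ± 0.20 to P6 (adjusted p = 0.0677), and the dimmer by 0.35 ± 0.20 and 0.57 ± 0.20 (adjusted p = 0.213 and 0.0975). None of these passed the test. The brighter probe set passed at P3 and at P6 under 4 of 13 alternatives each, with adjusted p from 0.0244 to 0.0435 in those, among them leaving out P3 replicate 1 at both stages. Interneuron markers averaged 7.58 and 7.60 at E18 and 6.30 to 6.69 later, with 4 of 8 lower and 1, Npy, higher at each postnatal stage. At P3 and again at P6, 6 of the 8 lay within the range of the genes of other organs up to its upper decile. The part of interneurons in the Grin2d values was not tested.

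Windows at a RefSeq start of Grin2c and Grin2d are shown because these were the GluN2 genes matched among the RefSeq promoters. Their P6 minus P3 differences were 1.72 and 0.03, neither of them called, and no link between windows and expression was tested. They are RefSeq sequences (build GRCm38.p6, both on the minus strand), 250 bases before to 50 bases after an annotated start, chr11:115267194-115267493 for Grin2c and chr7:45866632-45866931 for Grin2d. Both starts lie inside the RefSeq spans of their genes (chr11:115249169-115267297 for Grin2c and chr7:45831883-45871194 for Grin2d). The Grin2c start lies close to the outer end and the Grin2d start farther in, so the windows are not matched in position. Capitals mark GGGCGG on either strand, the core of the GC box bound by Sp factors.
Grin2c: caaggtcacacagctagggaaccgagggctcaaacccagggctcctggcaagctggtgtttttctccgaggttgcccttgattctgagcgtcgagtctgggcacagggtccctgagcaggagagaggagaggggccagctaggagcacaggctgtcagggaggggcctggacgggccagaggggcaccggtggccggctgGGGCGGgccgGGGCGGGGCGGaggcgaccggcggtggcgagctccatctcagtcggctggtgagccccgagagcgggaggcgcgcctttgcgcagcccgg
Grin2d: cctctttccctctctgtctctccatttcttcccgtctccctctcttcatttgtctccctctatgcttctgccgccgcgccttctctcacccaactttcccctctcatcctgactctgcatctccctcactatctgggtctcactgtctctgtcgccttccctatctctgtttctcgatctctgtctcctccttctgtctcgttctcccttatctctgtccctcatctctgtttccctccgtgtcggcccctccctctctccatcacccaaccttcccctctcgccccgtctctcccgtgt
The Grin2c window held 3 matches and the Grin2d window 0, and 35.7% of 32851 promoter windows of this length held at least 1. Neither held TATAAA on either strand, which 13.6% of windows held. CG dinucleotides numbered 22 in the Grin2c window and 12 in the Grin2d window, against a median of 7 over all windows. These are descriptions of letters in 2 windows, and no binding was measured.

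Grin3a encodes GluN3A, the subunit that makes early NMDA receptors less permeable to calcium and that binds glycine in place of glutamate. Probe set 1436575_at read 6.92 and 6.65 at E18, with P3 at 8.81 and 9.52 and P6 at 10.22 and 10.71. Probe set 1438866_at read 6.96 and 6.75 at E18, then 8.66 and 8.81 at P3, followed by 10.61 and 10.74 at P6. In both, the 3 stages were apart and in the order E18, P3, P6. The E18 values lay near the upper decile of the genes of other organs (6.66 and 6.71). On E18 replicate 2 that of 1436575_at lay below it, so the folds are against a nearly dim signal. These probe sets ranked at percentiles 47.4 to 52.5 at E18 and at 91.2 to 94.1 at P6. At P3 they were higher by 2.38 ± 0.33 (5.20-fold; limma adjusted p = 0.00294) and 1.88 ± 0.22 (3.68-fold; adjusted p = 0.0017). At P6 they were higher by 3.68 ± 0.33 (12.8-fold; adjusted p = 0.000459) and 3.82 ± 0.22 (14.1-fold; adjusted p = 0.0001). These 4 calls held under every alternative that tested them, 13 for the first probe set and 12 for the second.

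Both P6 arrays exceeded both P3 arrays for these Grin3a probe sets, though the step was not called. P6 differed from P3 by 1.30 ± 0.33 (unadjusted p = 0.00563) and 1.94 ± 0.22 (unadjusted p = 6.8e-05), and neither passed over all probe sets (limma adjusted p = 0.207 and 0.185). The second difference was called once P3 replicate 1 was left out (1.87, adjusted p = 0.0181). A change of pace between the intervals was not called for either (adjusted p = 0.223 and 0.924), though for 1436575_at it was without P3 replicate 1 (-1.80, adjusted p = 0.0474). The third probe set, 1458378_at, read 5.52 and 5.60 at E18, with P3 at 5.65 and 6.15 and P6 at 5.85 and 7.23, of which only the last exceeded the upper decile of the genes of other organs. Its difference from E18 at P6 was 0.98 ± 0.43 (adjusted p = 0.158), or 1.68 without P6 replicate 1 (adjusted p = 0.0222) and 0.29 without P6 replicate 2.

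**Figure D3:**
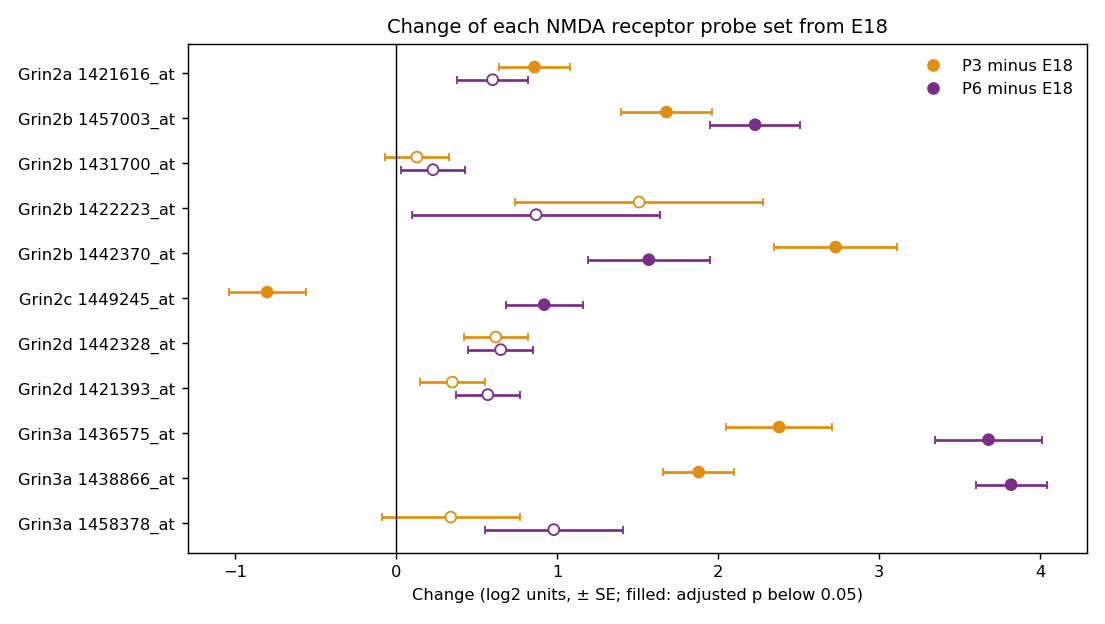
Change of each of the 11 probe sets from E18 to P3 (orange) and to P6 (purple) in log2 units, with SE from the limma fit on 6 arrays. Filled points have an adjusted p below 0.05. The 2 brighter Grin3a probe sets lie at 3.68 and 3.82 at P6, and Grin2c alone is below 0 at P3.

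The balance among Grin2a, Grin2b, Grin2d and Grin3a was compared within arrays, as the log2 difference between the brightest probe sets of a pair. Only the change of such a difference between stages has meaning, since probes differ in brightness. All 6 pairs were tested, postnatal arrays against E18 arrays, by a 2-sided exact permutation test over 15 splits, which cannot go below p = 0.0667. Grin2a over Grin2b was -3.28 and -3.20 on the E18 arrays, -4.37 and -3.76 on the P3 arrays and -4.40 and -5.34 on the P6 arrays. All Grin2a values lay within the range of the genes of other organs, so each ratio that holds Grin2a rests on a dim signal. Read by these probe sets, the balance moved away from Grin2a by 1.22 log2 units (exact permutation p = 0.0667, adjusted over the pairs 0.133), with all 4 postnatal arrays below both E18 arrays. With the mean of all probe sets of each gene the shift was -0.64. The direction depends on the Grin2b probe set. Probe set 1431700_at changed by only 0.13 at P3 and 0.23 at P6, less than Grin2a (0.86 and 0.60) and the brighter Grin2d probe set (0.62 and 0.65). Ratios read by it would move the other way for both pairs. The remaining Grin2b probe sets changed by more than Grin2a and Grin2d at both stages. Grin2d over Grin3a moved by -2.39 and Grin2b over Grin2d by 1.32, each with exact permutation p = 0.0667 (adjusted 0.133). Grin2a over Grin3a moved by -2.30 and Grin2b over Grin3a by -1.08 (exact permutation p = 0.133, adjusted 0.16). Grin2a over Grin2d moved by 0.10 (exact permutation p = 0.667). The pairs share genes and arrays, so they are not separate pieces of evidence.

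Read against the mean of the 8 general neuron markers on the same array, the subunits took different courses. This scale was added after the values were seen and was not tested. Its 8 markers did not move together, with changes from E18 to P6 between -0.33 (Map2) and 3.53 (Snap25). Shifts on it therefore depend on the markers averaged and are not changes per neuron. The brightest Grin2b probe set moved by -0.21 at P3 and 0.30 at P6 on it, with -1.51 and -1.57 at E18, then -1.82 and -1.69 at P3, followed by -1.64 and -0.84 at P6. The other Grin2b probe sets went differently: 1431700_at moved by -1.76 and -1.70, 1422223_at by -0.39 and -1.06, and 1442370_at by 0.84 and -0.36. The values of the 2 brighter Grin3a probe sets at P3 overlapped those at E18: 1436575_at stood at -2.83 and -1.94 and 1438866_at at -2.98 and -2.65, against -2.71 and -3.05, and -2.66 and -2.95, at E18. At P6 they stood at -1.44 and -0.81, and at -1.04 and -0.78, above all earlier arrays. The P6 means exceeded the E18 means by 1.75 and 1.90. The third and dim Grin3a probe set, 1458378_at, differed from E18 by -1.55 at P3 and -0.94 at P6. The brighter Grin2d probe set differed from E18 by -1.27 log2 units at P3 and by -1.28 at P6 on this scale, and Grin2a by -1.03 and -1.32, though its values lay among the dim signals. Grin2c stood at -2.79 and -2.86 at E18, at -5.64 and -5.38 at P3, and at -4.17 and -3.47 at P6, so that at P6 its direction was the opposite of the unscaled one.

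**Figure D4:**
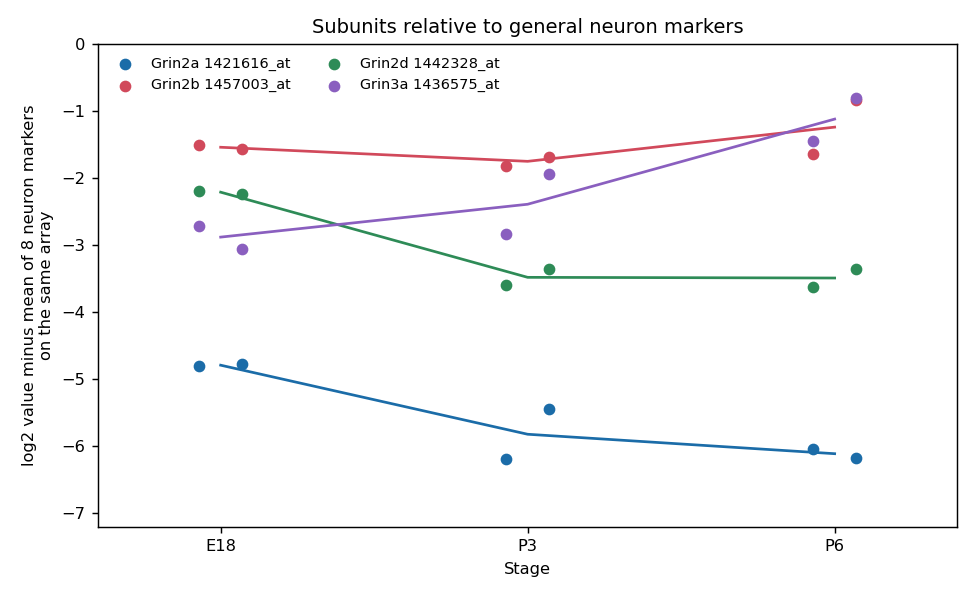
Log2 value of the brightest probe set of Grin2a, Grin2b, Grin2d and Grin3a minus the mean of 8 general neuron markers on the same array. Points are arrays and lines join stage means (n = 2). Grin3a stands at -1.44 and -0.81 at P6 against -2.71 and -3.05 at E18, while Grin2a and Grin2d stand lower after E18.

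Among genes of NMDA receptor partners, 40 were measured, each read by its brightest probe set. At P3, 13 rose and 6 fell, where 12.1% and 18.3% of all 18193 genes were called, and at P6, 20 rose and 3 fell, against 10.2% and 12.3%. The counts by role given below are to be read against the same shares. Each role holds few genes, so its counts are descriptions. Over the 40 genes the median change was 0.60 at P3 and 0.85 at P6, and over all genes 0.09 and 0.13. The rises numbered 6 at P3 and 8 at P6 with the E18 arrays averaged. They numbered 5 and 7 without E18 replicate 1, 6 and 7 without E18 replicate 2, and 9 at P6 without P6 replicate 1. The falls at P3 numbered 2 with the E18 arrays averaged or either of them left out and 10 without P3 replicate 1, and those at P6 numbered 7 without P3 replicate 1 or 2.

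Among scaffolds, which anchor the receptor in the postsynaptic density, 6 of 14 rose and 1 fell at P3, and 9 rose and 0 fell at P6. Dlg3, encoding SAP102, the scaffold of immature synapses, read 9.02 and 9.01 at E18 and 10.89 and 10.23 at P6, a rise of 1.54 ± 0.32 (2.92-fold; limma adjusted p = 0.0145) that was lost under 5 of 13 alternatives (0.0819 to 0.132). Dlg4, encoding PSD-95, the scaffold of mature synapses, read 7.69 and 7.76 at E18 and 8.25 and 9.26 at P3, a change of 1.03 ± 0.37 (adjusted p = 0.0793) that was called without P3 replicate 1 (1.53, adjusted p = 0.0124). Dlg1, encoding SAP97, fell by 1.09 ± 0.23 at P3 (adjusted p = 0.0146), a call lost under 4 of 13 alternatives (0.0957 to 0.186). Leaving out either E18 array ended the calls of Dlg3 and Dlg1, and leaving out P6 replicate 1 that of Dlg3. At the other stages, Dlg3 differed from E18 by 0.84 ± 0.32 at P3 (limma adjusted p = 0.0858). Dlg4 differed by 0.61 ± 0.37 at P6 (adjusted p = 0.288). So neither gene was called at P3.

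Among the kinases and phosphatases that act on the receptor, 3 of 9 rose and 1 fell at P3, and 4 rose and 1 fell at P6. Ptk2b, encoding the calcium-responsive tyrosine kinase Pyk2, read 6.42 on both E18 arrays, 10.02 and 9.76 on the P3 arrays, and 10.80 and 10.63 on the P6 arrays. The E18 values lay under the upper decile of the genes of other organs (6.66 and 6.71), so the folds are against a dim signal. It was 11.1-fold higher at P3 (3.47 ± 0.23, adjusted p = 0.00015) and 19.6-fold at P6 (4.29 ± 0.23, adjusted p = 7.22e-05). Camk2a, encoding the alpha subunit of CaMKII, differed by 0.49 ± 0.31 at P3 (adjusted p = 0.246), or by 0.88 without P3 replicate 1 (adjusted p = 0.0201). The Src family kinase gene Fyn differed by -0.76 ± 0.24 (adjusted p = 0.0569) and was called under 3 of 13 alternatives (0.0134 to 0.0449), among them without P3 replicate 1. Camk2b, encoding the beta subunit, was 4.12-fold higher at P3 (2.04 ± 0.30, adjusted p = 0.004) and 5.10-fold at P6 (2.35 ± 0.30, adjusted p = 0.00217), under all 13 alternatives. Camk2g was 2.31-fold higher at P6 (1.21 ± 0.27, adjusted p = 0.0215), a call lost under 6 of 13 (0.0602 to 0.178), among them leaving out any E18 or P6 array. Camk2b, Camk2g and Camk2d were named after their values were seen. Camk2d fell by 0.90 ± 0.16 at P6 (adjusted p = 0.00899), except with the E18 arrays averaged or 1 of them left out (0.115 to 0.13).

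Trafficking and surface partners gave 2 rises and 1 fall among 6 genes at P3. Neto1, encoding an auxiliary membrane protein found with NMDA and kainate receptors, read 7.96 and 7.97 at E18, with P3 at 10.40 and 10.50 and P6 at 10.65 and 10.15, a 5.60-fold rise to P3 (2.48 ± 0.25, adjusted p = 0.00082). The scaffold gene Gipc1 fell by 1.49 ± 0.24 at P3 (adjusted p = 0.006), lost under 4 of 13 alternatives (0.0682 to 0.0842), 2 of them without an E18 array, and differed from E18 by -0.23 ± 0.24 at P6. Of the 5 genes of transmitter and co-agonist supply, 1 rose and 1 fell at P3, led by Slc1a1, encoding the neuronal glutamate transporter EAAC1, which was 4.46-fold higher (2.16 ± 0.22, adjusted p = 0.000799). Grina, whose protein carries an NMDA receptor name but is no channel subunit, was 2.17-fold higher at P6 (1.12 ± 0.26, adjusted p = 0.0236), lost under 6 of 13 alternatives (0.0903 to 0.197), among them leaving out any E18 or P6 array. Grin3b, encoding the other GluN3 subunit, stood between 6.00 and 7.41 on the 6 arrays and was not called at any stage. Only its value on P6 replicate 1 exceeded the upper decile of the genes of other organs, so its signal was dim.

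Among 4 transcription regulators, 1 rose and 2 fell at both postnatal stages. Rest, encoding a repressor of neuronal genes, read 8.10 and 8.47 at E18, then 6.54 and 6.20 at P3, followed by 5.95 and 5.99 at P6, with all 4 postnatal values under the upper decile of the genes of other organs. The fitted fall was 1.92 ± 0.22 at P3 (adjusted p = 0.00151) and 2.32 ± 0.22 at P6 (adjusted p = 0.000647). Ezh2, encoding a histone methyltransferase of the Polycomb complex that is also high in dividing cells, fell by 2.70 ± 0.33 and 2.89 ± 0.33 (adjusted p = 0.00183 and 0.00131). Mef2c, encoding an activity-regulated factor of neurons, rose by 2.06 ± 0.25 and 1.72 ± 0.25 (adjusted p = 0.00166 and 0.00339). The calls of Ptk2b, Neto1, Slc1a1, Rest, Ezh2 and Mef2c held under all 13 alternatives at both stages. The falls of Rest and Ezh2 ran beside the fall of the progenitor markers, and the part of that shift in them was not tested.

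**Figure D5:**
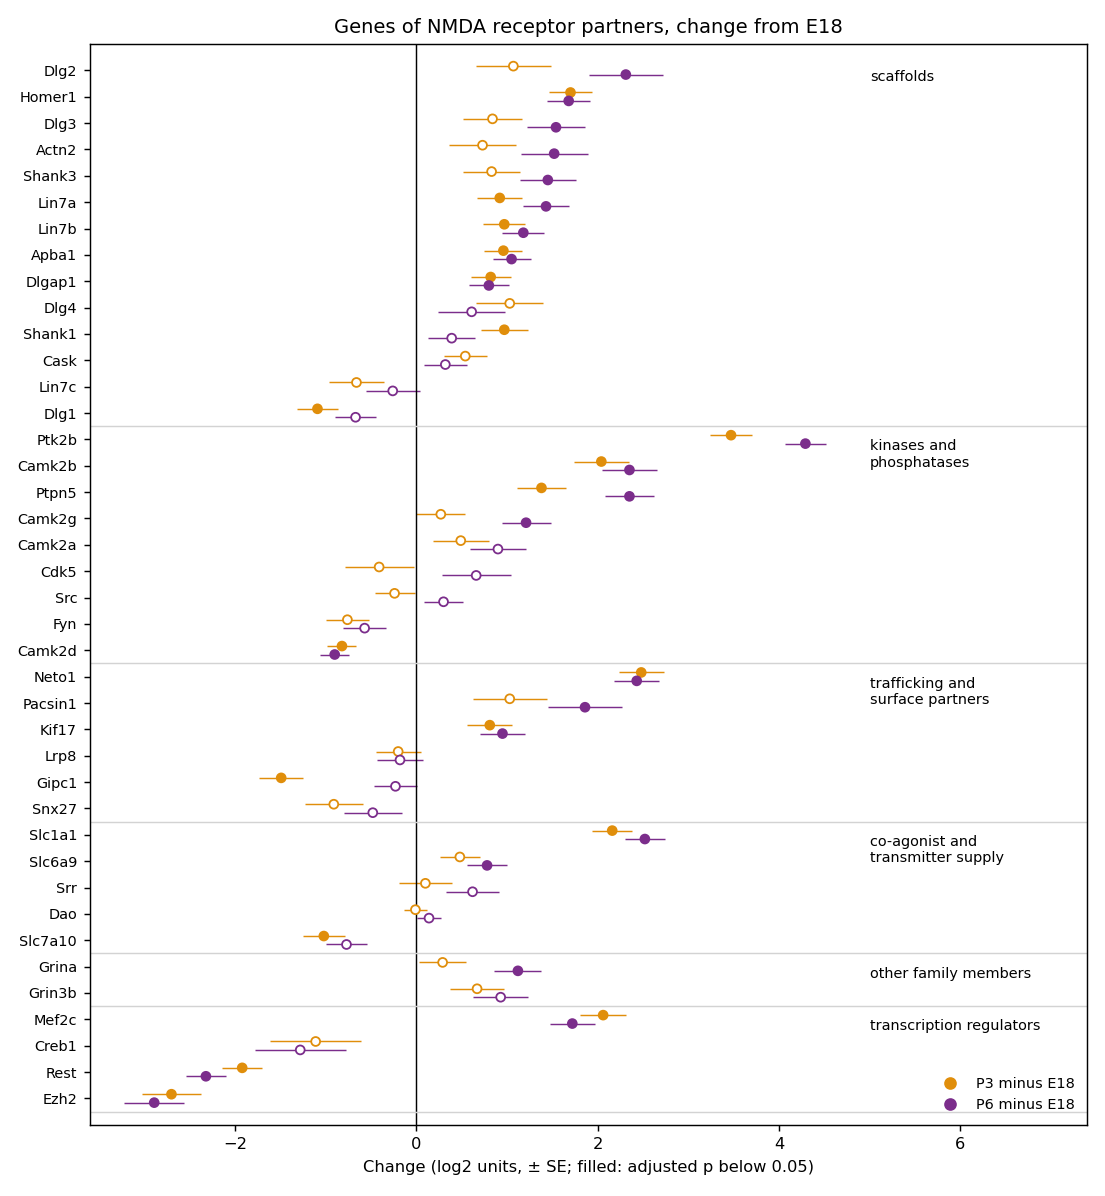
Change from E18 to P3 (orange) and to P6 (purple) of 40 genes of NMDA receptor partners, in log2 units with SE from the limma fit, grouped by role. Filled points have an adjusted p below 0.05. Ptk2b, whose E18 values were within the dim range, shows the largest fitted rises of the list, at 3.47 and 4.29, and Ezh2 the largest falls, at -2.70 and -2.89.

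The genes with the most similar course over the 6 arrays were found by the root mean square difference of their mean-centred log2 values, without a test, among 12852 genes (12853 for Grin2a). For Grin3a, read by 1436575_at, they were the tubulin gene Tuba4a at 0.23, the dendrite protein gene Ddn at 0.25 and Caly, encoding a vesicle protein, at 0.34 log2 units. For Grin2b they were the clustered protocadherin gene Pcdhb9 at 0.10, Dagla, encoding the enzyme that makes an endocannabinoid, at 0.11 and Sytl2 at 0.11. For Grin2d they were Cndp2, Lsp1 and Trpm2 at 0.02 to 0.04, and for Grin2a they were Crybb2, Runx1 and Ankrd45 at 0.04 to 0.06. The last 2 sets are small-amplitude courses, with changes from E18 of at most 0.87 log2 units at P3.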

How the data were processed

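RNA of sorted corticothalamic neurons was amplified, biotinylated and hybridised, per the labels' protocols. The authors deposited log2 values that RMA had produced for each probe set, according to the labels and per the submitters' processing notes. That method subtracts background, normalizes arrays to each other and combines the probes of a set. Not given in the sources used here are its version and whether all 6 arrays went into 1 run. Array values are relative, so the number of arrays limits the precision. No detection calls were used.

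Gene symbols came from the platform annotation. Of 45101, 34945 had 1 symbol, 932 several, 9160 none and 64 were controls. All 34945 entered 1 fit of stage means on 6 arrays (limma 3.58.1, R 4.3.3, empirical Bayes with intensity trend, 3 residual degrees of freedom), with no filter on dim signals. Tests were 2-sided, Benjamini-Hochberg adjusted, and called at adjusted p below 0.05. Errors are SE of that fit. The contrasts share arrays. The fit was tested on simulated data.

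A gene with several probe sets was represented, where 1 was needed, by that with the highest mean. Every member probe set is named. Named partners are the 4 largest called rises and falls at P3, plus Rest, Ezh2, Dlg1, Dlg3, Dlg4, Camk2a, Fyn and Grina. Camk2b, Camk2d, Camk2g and Grin3b fall outside that rule and were named after their values were seen. Genes most like a member needed a mean above the lowest 25% of genes, and symbols that only number a clone were passed over. Members and lists were chosen with earlier results of these data known. The alternatives were quantile normalization, 1 probe set per gene with the lowest 25% left out, the lowest 25% of probe sets left out, averaged E18 arrays, a replicate block, the hybridization control level as covariate, no intensity trend and each array left out. Labels number the arrays 1 and 2 within each stage and do not say that a number marks a shared animal or day.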

Additional observations from a re-analysis of the deposited data

How the results depend on the processing

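Of the 11 members, 6 were called at P3 and 5 at P6 against E18, and 3 at each stage with the E18 arrays averaged. Leaving out 1 array gave 3 to 7 member calls at P3, 3 to 7 at P6, 0 to 3 for P6 minus P3 and 1 to 5 for the second interval minus the first, where the full fit gave 2. The lowest counts against E18 came without E18 replicate 1 or 2, and at P6 also without P6 replicate 2. The 3 calls for P6 minus P3 came without P3 replicate 1. For the interval contrast the member count was 1 of the 4 members tested with 1 probe set per gene and the lowest 25% of genes left out, and 1 with the E18 arrays averaged and with the control level as covariate.

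Over all probe sets 9981 were called for P3 minus E18 (3052 to 16480 with 1 array left out), 5629 of the 13645 tested with 1 probe set per gene and the lowest 25% of genes left out, 3097 with the E18 arrays averaged and 3406 with the control level as covariate. For P6 minus E18 there were 7389 (3064 to 10983), and 4320, 3098 and 3800 in the same order. For P6 minus P3 limma called 0 (0 to 6277), with 5392 at an unadjusted p under 0.05. The 6277 came without P3 replicate 1. For the second interval minus the first there were 4236 (1092 to 12723), 1118 with the E18 arrays averaged and 1434 with the covariate. Of those 4236, 73.1% were higher, against 58.4% with quantile normalization. The partner rises at P3 numbered 20 with quantile normalization and 6 with the covariate, and at P6 8 with the covariate.

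Sign changes were in uncalled values. With quantile normalization P6 minus P3 was -0.02 for Grin2b 1431700_at and -0.20 for Grin2d 1442328_at, and the interval difference of Grin3a 1438866_at was -0.59, or -0.03 with the covariate. With 1 array left out P6 minus P3 ranged from -0.54 to 0.03 for Grin2a, -1.88 to 0.60 for Grin2b 1422223_at, -0.04 to 0.09 for Grin2d 1442328_at and -0.05 to 1.34 for Grin3a 1458378_at, and the interval difference of Grin3a 1438866_at from -0.09 to 0.21. The cause of these shifts was not tested.

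The Grin2a over Grin2b shift of -1.22, read by the brightest probe sets alone, ranged from -1.46 to -0.93 with 1 array left out. It was -1.57 with quantile normalization. With the replicate block it was -1.22, and 5 members were called at P3, 5 at P6 and 0 for P6 minus P3, with 8092 and 6481 of all probe sets for P3 and P6 minus E18. The deviations of same-numbered arrays correlated at -0.168 (E18 and P3), 0.0559 (E18 and P6) and -0.237 (P3 and P6), so the numbers were not taken to pair the arrays.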
